A study of Mus musculus with 20 samples.

Results

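miR-22 is a microRNA (miRNA) whose hairpin yields miR-22-3p and miR-22-5p, and both arms were followed through small RNA libraries of 20 mouse heart samples. The members were the table rows carrying these names, 2 of 1545 entries, and both were among the 360 miRNAs abundant enough to be tested (at least 5 RPM in at least 4 libraries). Levels are in RPM, the reads a miRNA had for each 1000000 reads summed over all entries of its library. In 11 pairs of nearly equal entries the second copies together held 7.79% to 31.6% of that sum. All hearts came from C57BL/6J mice and fell into 4 groups: myocardial infarction combined with CIH (MI+CIH, n = 7), myocardial infarction alone (MI, n = 4), CIH alone (CIH, n = 4) and sham (n = 5). CIH stands in the labels as letters and is read here as chronic intermittent hypoxia, since the series title names disordered breathing in sleep as worsening remodelling after infarction. Every group received flash freezing of the heart, Trizol extraction and a NEBNext small RNA library from 3 µg of total RNA. Age, sex, how infarction was made, the length of CIH, the time of sampling and the part of the heart taken are not given in the sources used here. Nothing in the labels says that libraries of 1 group come from separate animals, so p-values measure the spread between these samples. A heart counted or named below is thus 1 library.

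miRNAs are cut from hairpin transcripts into a duplex of arms, of which usually the more abundant arm is kept by Argonaute and represses messenger RNAs through pairing of its seed, bases 2 to 8. miR-22 is abundant in mouse heart and skeletal muscle. In mice it is known to promote growth of cardiomyocytes under stress: hearts lacking it show blunted hypertrophy, and the deacetylases Sirt1 and Hdac4 are among its targets.

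Both mature sequences are shown because the results turn on the balance between them, with the seed in capitals, followed by the precursor with the 5p and 3p arms in capitals. Sequences are from RefSeq on GRCm38.p6, read 5′ to 3′ on the plus strand.
miR-22-3p: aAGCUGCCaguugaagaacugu
miR-22-5p: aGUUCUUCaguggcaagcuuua
mir-22 hairpin: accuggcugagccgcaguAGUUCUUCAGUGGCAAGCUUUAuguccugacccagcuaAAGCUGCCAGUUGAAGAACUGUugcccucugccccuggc

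The hairpin of 95 bases lies at chr11:75463716-75463810, the 3p arm at chr11:75463772-75463793 and the 5p arm at chr11:75463734-75463755. In the GENCODE M21 annotation of GRCm38 the whole hairpin is within exon 2 of the noncoding host transcript Mir22hg, and also within exon 2 of Tlcd2-203, a noncoding transcript of the overlapping protein-coding gene Tlcd2. Both arms are 22 bases long, start with A and are separated by 16 bases. In the fold computed by RNAfold (-41.9 kcal/mol) 19 pairs join the arms, and all 7 seed bases of each arm are paired. Either seed occurred in 1 of 1679 mature names of the RefSeq table, miR-22 itself, so the arms have different seeds and neither shares its seed with another miRNA there. RPM holds no length term and the arms are equally long. How evenly ligation and amplification capture each sequence was not tested, so levels of different miRNAs, and the ratio of the arms as an absolute value, are those of the sequenced reads.

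Reads summed to between 1991323 and 18138415 per library, so that 1 read was worth 0.0551 to 0.502 RPM. The 95% counting interval reached 0.457% to 2.46% either side of a miR-22-3p value and 3.80% to 11.04% either side of a miR-22-5p value, for counting error alone. Clustering on the levels of the tested miRNAs, with the number of sets fixed at 3, also split the libraries into sets that no label names. Set A contained the 5 sham and 4 CIH hearts, MI 2 and MI+CIH 1. Set B comprised MI 1, MI 3 and MI+CIH 2, 3, 4 and 5, and MI+CIH 6 and 7 with MI 4 made up set C. Within-set correlation across the tested miRNAs (Pearson's r) ran from 0.908 to 0.994 (73 pairs), against 0.710 to 0.932 between sets (117 pairs). The sets were drawn from these same correlations, so higher values within them were built in, and the ranges overlap. Sets B and C held infarcted hearts alone, so for those hearts set and infarction cannot be told apart. Heart muscle markers (miR-1a-3p, miR-133a-3p, miR-208a-3p and miR-499-5p) were detected in each group and together took 88403 to 300717 RPM in infarcted hearts and 193358 to 317712 RPM in the others. Against its label, sham 1 had a fibroblast marker sum (miR-199a-3p, miR-199a-5p and miR-214-3p) of 1844 RPM, against 386 to 422 RPM in the remaining sham hearts. MI 2 had 363 RPM, near sham and below the other MI hearts. Results that rest on these hearts are given without them where the call changes.

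miR-22-3p was the dominant arm in every heart and was lower in MI+CIH than in sham, by 3.71-fold as taken from means of log2(RPM + 1). The 5p arm did not pass the test in RPM, and the 3p to 5p ratio was lower by 3.08-fold, likewise from means of log2 values. Neither the 3p level nor the ratio was called once the fit held a term for library sets, described above. Those sets were drawn from the same levels, both miR-22 arms included. Such a fit can take out group differences along with set differences. Hearts of set C had the lowest 3p levels, the lowest 5p levels and the lowest ratios of all 20. MI alone lay between MI+CIH and sham in the 3p level and in the ratio, and neither arm passed the test there.

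Across the 20 hearts miR-22-3p averaged 8728 RPM and ranked 14th of all entries, between miR-27b-3p at 8938 RPM and let-7c-5p at 8032 RPM. miR-22-5p averaged 145 RPM and ranked 114th, between miR-145a-3p at 145.7 RPM and miR-126b-5p at 135 RPM. The place of miR-22-3p varied from 8th in its best library to 62nd in its worst, and that of miR-22-5p from 61st to 176th. The highest miR-22-3p value was 28.9 times the lowest, while the span was 8.42 times for miR-22-5p and 9.58 times for their ratio. The 3p arm exceeded the 5p arm in 20 of 20 libraries. By mean log2 ratio of 3p to 5p, miR-22 stood 8th of the 86 hairpins with both arms tested, at 5.59, between mir-152 at 6.14 and mir-140 at 5.25.

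The 3p arm, the main miR-22 product in these hearts, had 8127, 10542, 5281, 3438, 7451, 955 and 519.6 RPM in MI+CIH hearts 1 to 7. MI hearts 1 to 4 had 10695, 12525, 5701 and 866 RPM, and CIH hearts 1 to 4 had 15041, 10701, 6685 and 11882 RPM. Sham hearts 1 to 5 had 10908, 14064, 13709, 12863 and 12611 RPM. All 7 MI+CIH hearts lay below the lowest sham heart, so these groups did not overlap. MI+CIH 6, MI+CIH 7 and MI 4, the 3 hearts of set C, stood far under the rest. In MI 3 of 4 hearts were below every sham heart, and MI 2 was within the sham range. CIH 1 was above every sham heart, CIH 2 and CIH 3 were below, and CIH 4 was among them.

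Group means of miR-22-3p were 5188 ± 3768 RPM in MI+CIH (SD, n = 7), 7447 ± 5250.1 RPM in MI (n = 4), 11077 ± 3454 RPM in CIH (n = 4) and 12831 ± 1229 RPM in sham (n = 5). From high to low the order was therefore sham, CIH, MI, MI+CIH, and neighbours in it differed by less than the larger of their SDs. The spread itself was unequal, at 72.6% of the mean in MI+CIH and 9.58% in sham.

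The 5p arm had 99.9, 162, 195, 159, 156, 76.1 and 34.7 RPM in MI+CIH hearts 1 to 7. MI hearts 1 to 4 had 149.6, 184, 192 and 62.2 RPM, and CIH hearts 1 to 4 had 292, 140.3, 179.7 and 140.4 RPM. Sham hearts 1 to 5 had 118, 128, 114, 152 and 166 RPM. Here the groups overlapped: 3 MI+CIH hearts were below every sham heart and 1 was above. The 3 lowest values were again those of set C. Means were 126 ± 57.2 RPM in MI+CIH, 147 ± 59.4 RPM in MI, 188 ± 71.7 RPM in CIH and 135 ± 22.3 RPM in sham. In the order CIH, MI, sham, MI+CIH no neighbours differed beyond their spread.

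**Figure D1:**
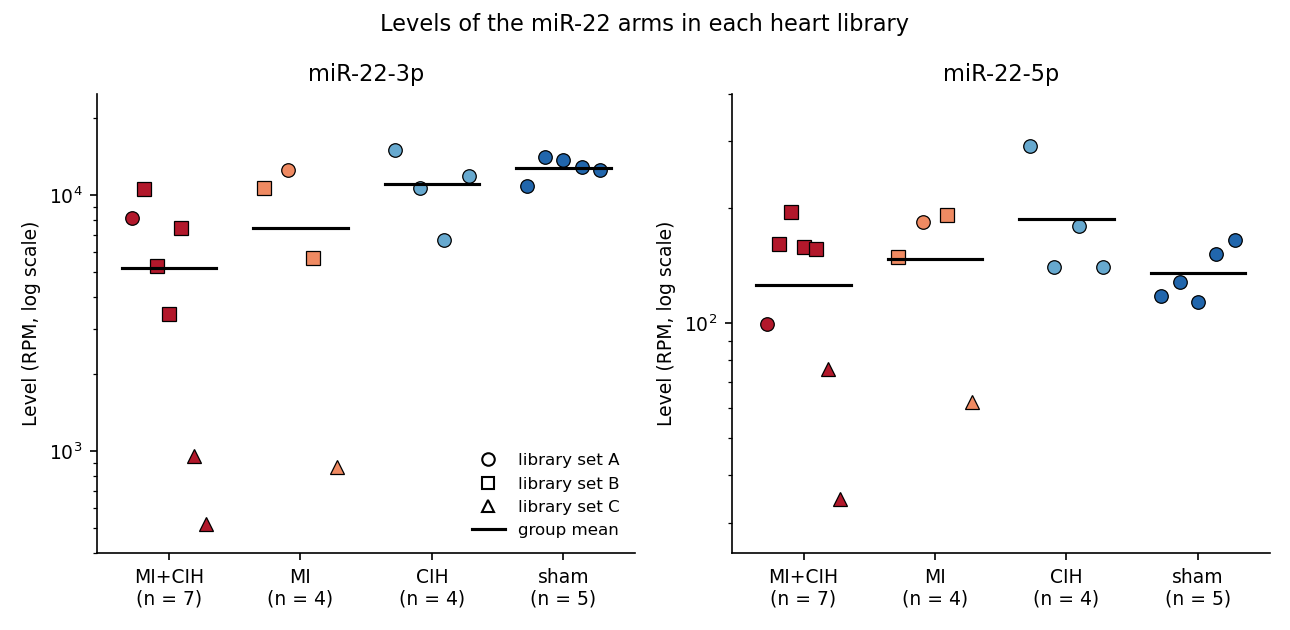
Level of miR-22-3p (left) and miR-22-5p (right) in RPM on a log axis, 1 point per heart, with MI+CIH, MI, CIH and sham from left to right, the marker shape giving the library set and the bar the group mean. The 7 MI+CIH hearts lie below all 5 sham hearts for the 3p arm but overlap them for the 5p arm, and the 3 hearts of set C lie lowest in both panels.

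The ratio of the arms does not depend on how a library is scaled, since both values come from the same library. It was 81.4, 65.2, 27.0, 21.7, 47.7, 12.6 and 15.0 in MI+CIH hearts 1 to 7. MI hearts 1 to 4 had ratios of 71.5, 68.1, 29.7 and 13.9, and CIH hearts 1 to 4 had 51.5, 76.3, 37.2 and 84.6. Sham hearts 1 to 5 had ratios of 92.8, 109, 120.3, 84.9 and 76.2. All 4 MI hearts lay under the lowest sham heart, as did 6 of 7 MI+CIH hearts and 2 of 4 CIH hearts. MI+CIH 1, the MI+CIH heart of set A, was within the sham range. Mean ratios were 38.6 ± 26.7 in MI+CIH, 45.8 ± 28.5 in MI, 62.4 ± 21.9 in CIH and 96.7 ± 18.0 in sham. As a share of miR-22 reads, the 5p arm made up 3.77% ± 2.39 in MI+CIH, 3.20% ± 2.50 in MI, 1.75% ± 0.665 in CIH and 1.05% ± 0.191 in sham.

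**Figure D2:**
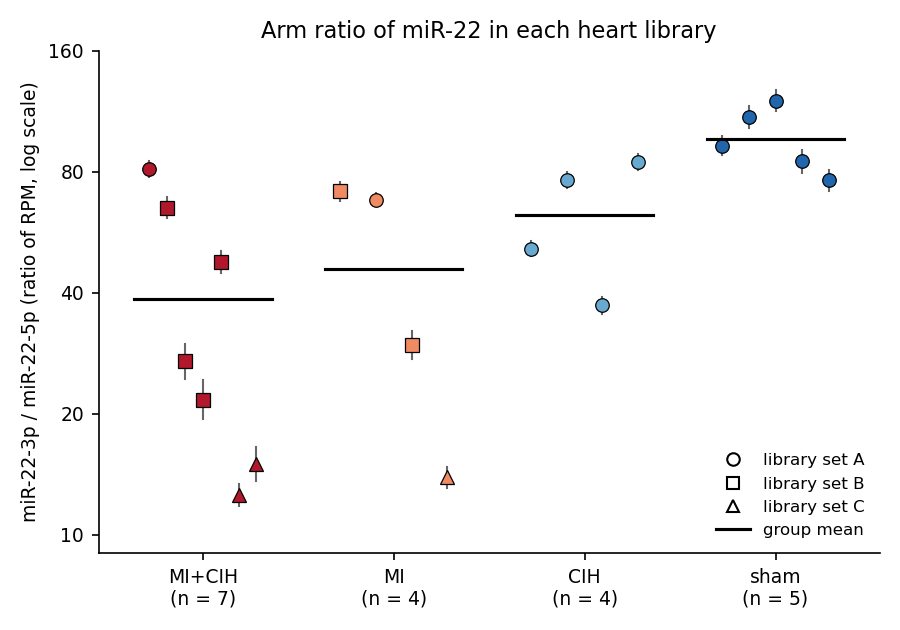
Ratio of miR-22-3p to miR-22-5p (RPM over RPM, log axis) in each heart, with MI+CIH, MI, CIH and sham from left to right, marker shape for the library set and a bar for the group mean. Sham hearts sit between 76.2 and 120.3, the 4 MI hearts all lie below them, and the 3 hearts of set C lie between 12.6 and 15.0.

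Differences between groups were tested with limma on log2(RPM + 1) over all 360 miRNAs, and for the ratio over the 86 hairpins, with p adjusted by Benjamini-Hochberg in each comparison and a threshold of 0.05. In MI+CIH against sham the miR-22-3p level fell by 1.89 on the log2 scale (SE 0.69, 95% interval -3.33 to -0.45, limma adjusted p 0.0263). This comparison called 56.7% of all tested miRNAs, and 4.44% as lower. Of the 360 miRNAs 2 had a lower fold change than miR-22-3p: the growth-restraining miR-101a-3p at -2.97 and miR-101b-3p at -2.03. Groups that did not overlap, lower in MI+CIH, were found for 1.67% of the miRNAs. All tested miRNAs together had a median difference of 1.39, and relative to that miR-22-3p stood at -3.28. In the same comparison the miR-22-5p level had a log2 difference of -0.27 (SE 0.44, interval -1.19 to 0.65, limma adjusted p 0.627), or -1.66 relative to that median. With libraries scaled by median-of-ratios, which brings the median of all miRNAs to 0.12, 5p was called lower too (-1.65, adjusted p 0.00796), as it was with TMM (-1.87, adjusted p 0.00497), while 3p was called lower under both (-3.29 and -3.51).

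The size of the miR-22-3p fall moved with set C. Leaving out its 3 hearts, a choice made after seeing the data, the 3p difference between MI+CIH and sham was -0.98 (interval -1.69 to -0.26, limma adjusted p 0.0179) and that of 5p was 0.17 (adjusted p 0.658). A fit with a term for the set, which rests MI+CIH against sham on MI+CIH 1 and on MI hearts that link the sets, gave a 3p difference of -0.54 (interval -1.38 to 0.31, adjusted p 0.691). Within set A alone it was -0.65 (adjusted p 0.420), with 1 MI+CIH heart. Without sham 3 the adjusted p over all libraries was 0.0535, at a difference of -1.87, and without the filter on low values it was 0.0809, at -1.89.

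The miR-22 ratio differed from sham by -1.62 on the log2 scale in MI+CIH (SE 0.51, interval -2.68 to -0.56, limma adjusted p 0.0338), where 22.1% of the hairpins were called and 15.1% as lower. An exact permutation test over the samples, two-sided, gave p = 0.00505 for this ratio, or 0.0253 adjusted over 5 pairwise comparisons. The limma call depended on single hearts: without any 1 of MI+CIH 3, 4 and 7 or sham 1, 2, 3 and 4 the adjusted p lay between 0.0558 and 0.0648, and without sham 1 and MI 2 together it was 0.0530, while the difference stayed between -1.85 and -1.40. Leaving out set C it was -1.15 (adjusted p 0.0317). A set term in the fit brought it to -0.42 (interval -1.39 to 0.54, adjusted p 0.927), and within set A alone -0.23 (adjusted p 0.949).

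In MI against sham limma called 0% of the miRNAs and 0% of the hairpin ratios. Without MI 2 it called 113 of 360 miRNAs and 14 of 86 ratios, and without sham 1 and MI 2 together 114 and 10. Without MI+CIH 1, which enters through the shared spread, it called 31 miRNAs and 0 ratios. In each of these fits neither arm of miR-22 nor its ratio was called. The 3p level differed by -1.33 (SE 0.79, interval -2.98 to 0.31, adjusted p 0.227), which is -2.27 relative to the median over all tested (0.94). Without MI 4, the MI heart of set C, it was -0.48, and leaving out any 1 library gave -1.77 to -0.48. The 5p level differed by 0.01 (interval -1.05 to 1.06, adjusted p 0.997). The ratio differed by -1.34 (SE 0.58, interval -2.55 to -0.13), with a limma adjusted p of 0.171 over the 86 hairpins. The exact permutation test on this ratio alone, two-sided, gave p = 0.0159, or 0.0397 adjusted over the 5 comparisons. In MI all 4 ratios were below all 5 sham ratios, which was so, in that direction, for 6.98% of the hairpins. With the set as a term the 3p difference was -0.15 and the ratio difference -0.29. That fit rests MI against sham on MI 2 and, through the other sets, on MI+CIH 1. MI 2 is the MI heart with a fibroblast marker sum near sham.

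In CIH against sham limma also called 0% of the miRNAs and 0% of the ratios. miR-22-3p differed by -0.27 (interval -1.91 to 1.38, adjusted p 0.998) and miR-22-5p by 0.42 (interval -0.64 to 1.47, adjusted p 0.998). The 5p level of CIH 1, 292 RPM, was the highest of all 20 hearts. The ratio differed by -0.68 (interval -1.90 to 0.53, limma adjusted p 0.999), and the exact permutation test gave p = 0.0476, or 0.0794 adjusted over the 5. Both groups lie wholly in set A, so no set difference enters their means. The spread behind the limma intervals is that of all 20 libraries, sets B and C included. With the set as a term, drawn from these same levels, the differences were the same and the intervals narrower, part of which may be built in. For the ratio the interval was then -1.41 to 0.04 (limma adjusted p 0.866), and for 3p -0.90 to 0.37 (limma adjusted p 0.845).

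For CIH added to infarction, MI+CIH against MI, limma called 0% of the miRNAs and 0% of the ratios. miR-22-3p differed by -0.56 (SE 0.74, interval -2.10 to 0.98, adjusted p 0.895), miR-22-5p by -0.28 (interval -1.26 to 0.71, adjusted p 0.898) and the ratio by -0.28 (interval -1.41 to 0.85, adjusted p 0.977; exact permutation p = 0.661). Leaving out any 1 library moved the 3p difference between -1.41 (without MI 4) and -0.10 (without MI+CIH 7). Intervals this wide do not show that MI+CIH and MI hearts were alike in miR-22. Within sets, the difference in mean log2 3p level was -0.62 in set A, -0.35 in set B and -0.30 in set C. In 4 of 7 MI+CIH hearts the 3p level was below every MI heart of the same set, and in 1 it was above. Sets A and C have 1 MI heart each, and in set A that heart is MI 2. For the ratio 3 of 7 were below and 2 above.

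In MI+CIH against CIH limma called 56.9% of the miRNAs, 2.22% as lower, and neither arm of miR-22 was among them. The 3p level differed by -1.63 (SE 0.74, interval -3.16 to -0.09, adjusted p 0.0646), with 4 of 7 MI+CIH hearts below every CIH heart. Leaving out MI+CIH 1, MI+CIH 2 or MI 4 brought the adjusted p to 0.0386, 0.0398 or 0.0347. Both arms were called lower under median-of-ratios scaling, at -3.30 for 3p and -2.35 for 5p, against a 5p difference of -0.69 in RPM (interval -1.67 to 0.30, adjusted p 0.209). The ratio differed by -0.94 (interval -2.07 to 0.19, adjusted p 0.265), where 12.8% of the hairpins were called and 8.14% as lower, and its sign turned with the set as a term (0.26). The interaction, the change with CIH in infarcted hearts minus that in hearts without infarction, was -0.29 for 3p (interval -2.55 to 1.96), -0.69 for 5p (interval -2.14 to 0.75) and 0.40 for the ratio (interval -1.26 to 2.06). Their adjusted p were 0.965, 0.905 and 0.993, and limma called 0% of the miRNAs and ratios.

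**Figure D3:**
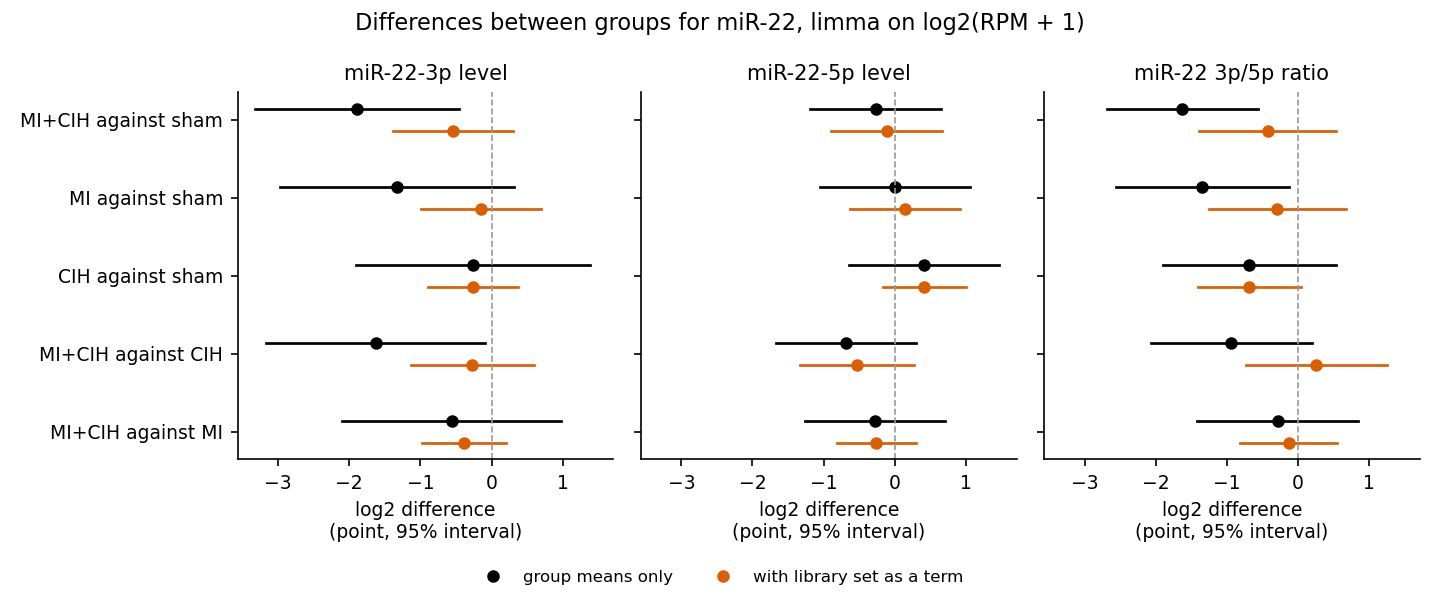
Log2 differences between groups (points, with 95% intervals as lines) for miR-22-3p, miR-22-5p and their ratio, each comparison with the first-named group minus the second, without and with the library set as a term. For MI+CIH against sham the interval excludes 0 for the 3p level (-3.33 to -0.45) and the ratio (-2.68 to -0.56) without the set term, and includes 0 for both with it.

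**Figure D4:**
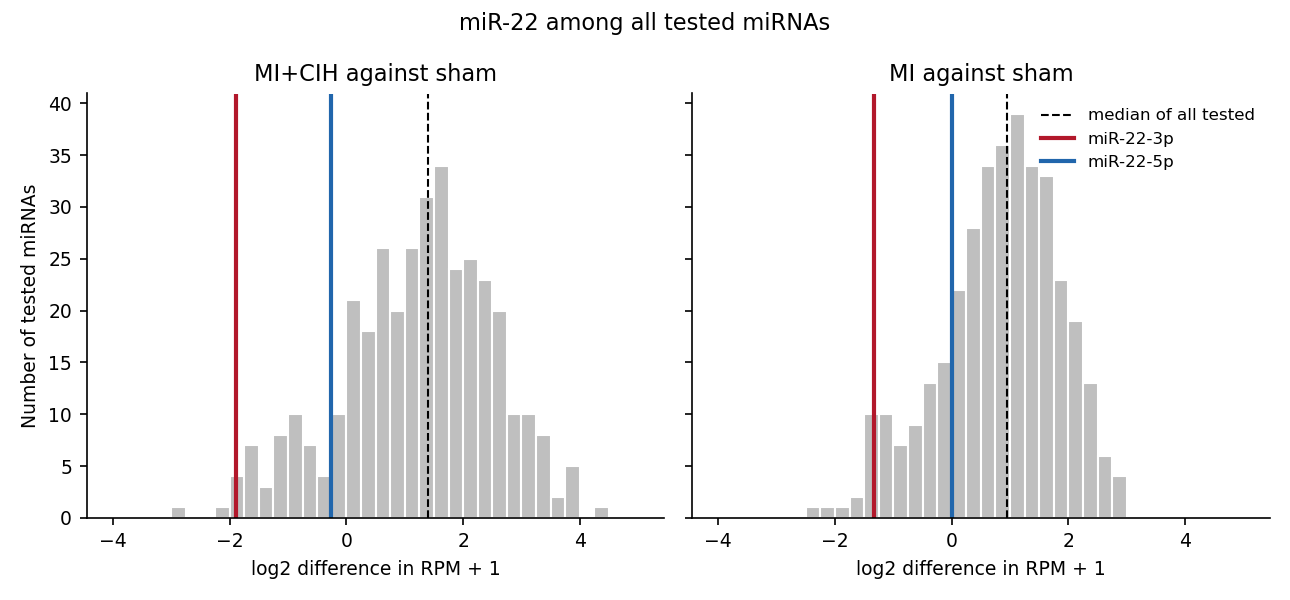
Histograms of the log2 difference of all 360 tested miRNAs in MI+CIH against sham (left) and MI against sham (right), with lines for miR-22-3p, miR-22-5p and the median (dashed). In MI+CIH against sham the bulk lies above 0 around a median of 1.39, and miR-22-3p lies at the low edge, at -1.89.

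miR-22 levels also went with the library sets. Mean miR-22-3p was 780.2 ± 229.99 RPM in set C (n = 3), 7185 ± 2950.5 RPM in set B (n = 6) and 11738 ± 2514 RPM in set A (n = 11). miR-22-5p averaged 57.7 ± 21.1, 169 ± 19.7 and 156 ± 52.5 RPM in sets C, B and A, so set B was low in 3p and not in 5p, whereas set C was low in both. The ratio averaged 13.8 ± 1.22 in set C, 43.8 ± 21.02 in set B and 80.2 ± 23.5 in set A, and the 5p share of miR-22 reads 6.78%, 2.70% and 1.35%. No test is given, since miR-22 was among the miRNAs from which the sets were found. Over the 20 libraries Pearson's r between the log2 levels of the arms was 0.77, but 0.26 within set A (n = 11) and -0.40 within set B (n = 6). The libraries of a set share whatever sets it apart, so the value over all 20 mostly describes the sets.

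**Figure D5:**
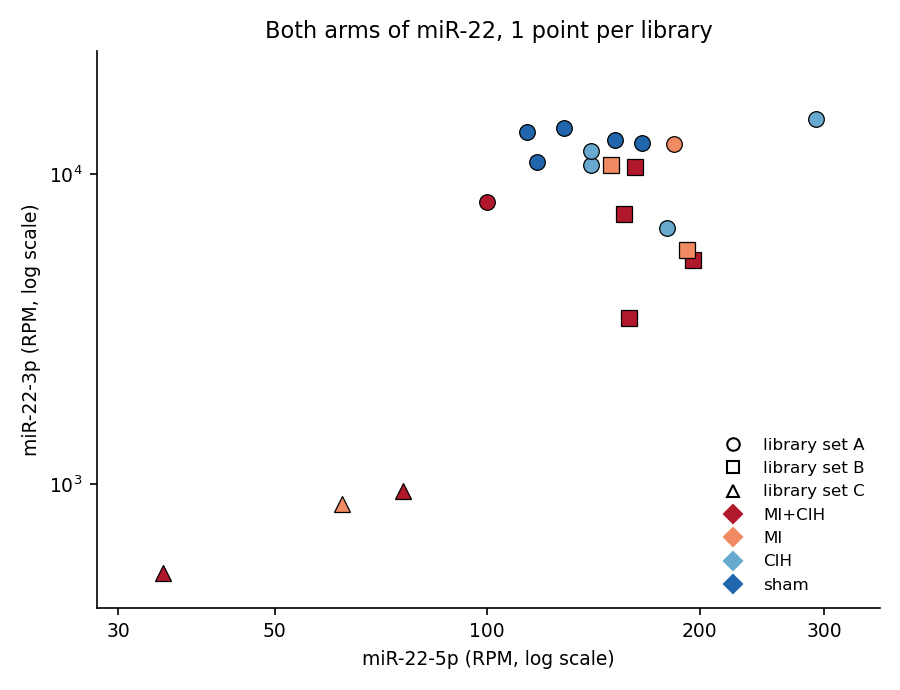
Level of miR-22-3p against that of miR-22-5p in each library (RPM, both axes log), with colour for the group and marker shape for the library set. The 3 libraries of set C lie apart at the lower left, and set B lies within the 5p range of set A (149.6 to 195.5 RPM, against 99.9 to 292 RPM) and averages lower in 3p.

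Markers of other cell types moved with these hearts, and their part in the miR-22 differences was not tested. In MI+CIH against sham 4.44% of all tested miRNAs were called lower and 52.2% higher. Heart muscle markers fell in 3 of 4 there (list median -1.32): miR-1a-3p by 0.82, miR-208a-3p by 1.82 and miR-499-5p by 1.84, while miR-133a-3p rose by 1.60 in RPM and was not called under median-of-ratios (0.20) or TMM (-0.02). Their sum was 241459 to 295409 RPM in set C, where miR-22-3p was 519.6 to 955 RPM, and 88403 to 184642 RPM in set B, against 183298 to 317712 RPM in set A. Most of it was miR-1a-3p, at 234531 to 287381 RPM in set C, and the other members split there. miR-499-5p had 720 to 1490 RPM in set C against 1683 to 4598 RPM in set A. miR-133a-3p had 5345 to 6725 RPM against 1533 to 3637 RPM, and miR-208a-3p 42.5 to 100.4 RPM against 30.9 to 100.2 RPM. None of the 4 was at 0 in any heart.

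Smooth muscle and endothelial markers each split between their members. miR-143-3p had 24478 to 39387 RPM in set C, 127688 to 269317 RPM in set B and 133678 to 260901 RPM in set A, whereas miR-145a-5p had 1405 to 2252 RPM, 2807 to 4813 RPM and 450.1 to 1327 RPM in the same sets. miR-126a-3p had 24287 to 49894 RPM in set C, 2875 to 6729 RPM in set B and 5357 to 9206 RPM in set A, whereas miR-126a-5p had 367 to 481 RPM, 287 to 784 RPM and 488 to 1821 RPM. So in set C miR-143-3p was below sets A and B, like miR-22-3p, while miR-126a-5p was below set A and within the range of set B. Of their partners there, miR-145a-5p lay between sets A and B, and miR-126a-3p above both.

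Of the other lists in MI+CIH against sham, 3 of 3 fibroblast markers rose, beside 52.2% called higher and 4.44% lower among all tested miRNAs. The fibroblast sum was 1263 to 6822 RPM in MI+CIH and 386 to 1844 RPM in sham. Of 5 leukocyte markers 2 rose, and miR-142a-3p (-0.50) and miR-142a-5p (-1.12, adjusted p 0.108) had negative differences. The epithelial markers rose in 4 of 4 tested (list median 3.48), with a sum of 96.98 to 1023 RPM in MI+CIH and 20.4 to 91.6 RPM in sham. miR-206-3p of skeletal muscle rose (adjusted p 0.00143), at 2.44 to 437 RPM in MI+CIH and 0 to 0.183 RPM in sham, and the liver miRNA miR-122-5p rose by 1.98 (adjusted p 0.0243). Of 3 erythroid markers 1 rose and 1 fell, and the tested neural marker did not pass. These counts too follow the scaling. Under median-of-ratios 1 fibroblast, 1 leukocyte and 3 epithelial markers rose, beside 16.9% called higher and 14.2% lower among all. There miR-206-3p rose, miR-122-5p did not pass and no erythroid marker rose. In the same fit 1 leukocyte marker, 1 erythroid marker and the neural miR-9-5p (-1.23) fell. With a set term no marker passed. In whole tissue such as this, fewer cells of a type and less miRNA per cell cannot be told apart.

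By Pearson's r of log2 levels over the 20 libraries, the miRNAs most like miR-22-3p were miR-143-3p (0.89), miR-125b-2-3p (0.82), miR-22-5p (0.77), miR-126a-5p (0.75) and miR-450a-5p (0.75). Within set A, where hearts of every group are present but just 1 each of MI and MI+CIH, these were 0.03, 0.36, 0.26, 0.81 and 0.73. The likeness to the endothelial miR-126a-5p and to miR-450a-5p was thus there within that set, and that to the smooth muscle miRNA miR-143-3p was not. miR-126a-5p fell in MI+CIH against sham (-1.53, SE 0.41, limma adjusted p 0.00539), while miR-126a-3p of the same hairpin did not pass (0.11, adjusted p 0.879). miR-143-3p did not pass in RPM (-0.86, adjusted p 0.166), while the other smooth muscle marker, miR-145a-5p, rose by 1.65 (limma adjusted p 0.00517). Both calls changed with the scaling. Under median-of-ratios and under TMM miR-143-3p was called lower (list medians -1.01 and -1.23), and miR-145a-5p was not called (0.25 and 0.03). Most like miR-22-5p were a predicted entry without a miRBase name (0.82), miR-676-5p (0.79), miR-22-3p (0.77), miR-143-3p (0.76) and another predicted entry (0.74). Within set A these were 0.41, 0.35, 0.26, -0.12 and 0.79.

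miR-22-3p was then set beside other miRNAs known for a part in cardiac hypertrophy. Of the 14 listed as promoting it 13 were tested, and in MI+CIH against sham 7 rose and 2 fell, with a median difference of 1.74 beside 1.39 for all miRNAs. Among all tested miRNAs 52.2% were called higher and 4.44% lower, so the share that rose was near the background. The extremes were the inflammatory miR-155-5p, which rose by 2.72 (SE 0.68, limma adjusted p 0.00341), and miR-499-5p of the myosin gene Myh7b, which fell by 1.84 (SE 0.43, limma adjusted p 0.00272). So miR-22-3p, itself a promoting miRNA, had a difference (-1.89, SE 0.69) below that of all 13, but within its SE of miR-499-5p. Without set C the miR-22-3p difference was -0.98, and its place among the 13 was not examined there. Of 12 listed as restraining hypertrophy 4 rose and 2 fell, with a median of 0.52, from miR-98-5p of the let-7 family (2.11, SE 0.45, adjusted p 0.00205) to miR-101a-3p (-2.97, SE 0.72, adjusted p 0.00311). These counts follow the scaling: with median-of-ratios 3 promoting miRNAs rose and 2 fell, and 0 restraining rose and 5 fell, beside 16.9% higher and 14.2% lower among all. With TMM 3 promoting rose and 3 fell, and 0 restraining rose and 6 fell, beside 14.2% higher and 17.5% lower. With a set term none of either list passed.

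In MI+CIH against MI 0 of 13 promoting and 0 of 12 restraining miRNAs passed, with medians of 0.70 and -0.15 beside 0.41 for all. The promoting list ran from miR-208a-3p of the alpha myosin gene Myh6 (-1.12) to the fibroblast miRNA miR-199a-5p (1.39), and the restraining list from miR-9-5p (-0.68) to miR-98-5p (0.55). miR-22-3p, at -0.56, was inside the range of both lists. In MI against sham and in CIH against sham none of either list passed. In MI+CIH against CIH 7 promoting miRNAs rose and 1 fell, and 4 restraining rose and 2 fell, beside 54.7% called higher and 2.22% lower among all.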

How the data were processed

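Per the submitters' processing notes, reads were processed against mm10 with Bowtie and DESeq 1.8.3. Counting rules and the miRBase release are not given in the sources used here. The authors deposited 1 table of 1545 entries (1427 with miRBase names, 118 predicted) whose header reads TPM, and by its values the deposited unit is RPM: each column sums to 1000000, no length enters, and 100% of values were whole multiples of 1 read (tolerance 0.05 reads). Reads were recovered from them. The design had called the unit TPM. The members and lists were chosen with earlier results of these data known.

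limma 3.58.1 (R 4.3.3, trend, two-sided) took log2(RPM + 1) of all 20 libraries and estimated 4 group means, leaving 16 residual degrees of freedom. Fold changes on this scale understate those of rare miRNAs. Ratios were fitted likewise over 86 hairpins. In the text rose, fell and called mean an adjusted p of at most 0.05. Sets came from average-linkage clustering on 1 minus Pearson's r, with the number of sets fixed and not estimated from the data. Entries within 5% of another in every library (11 pairs, 7.79% to 31.6% of reads) were treated as second copies and left out in 1 alternative. edgeR 4.0.16 (quasi-likelihood) and DESeq2 1.42.0 were run on recovered reads as alternatives, since the table holds RPM. Added after seeing the data were the set term together with median-of-ratios scaling, and leaving out set C. Named miRNAs follow a rule: the 5 most like each arm, neighbours in level or ratio, and the extremes of each list; miR-101b-3p was named after its value was seen. The limma fit of levels was also run on simulated reads with independent errors, equal spread in every group and no library sets. That run does not show how the fit behaves with the sets, the shifted median and the unequal spread seen here.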

Additional observations from a re-analysis of the deposited data

How the results depend on the processing

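The fall of miR-22-3p in MI+CIH against sham (-1.89) was no longer past the threshold without a filter on low values (-1.89, adjusted p 0.0809), or with a set term (-0.54), in set A alone (-0.65) and with the set term and median-of-ratios scaling (-0.77); leaving out 1 library gave -2.16 to -1.44. edgeR and DESeq2 on recovered reads called it (-2.88 and -2.72). The lower ratio (-1.62) was not called with the set term (-0.42), in set A (-0.23) or without sham 1 and MI 2 (-1.63), and ran from -1.85 to -1.40 with 1 library left out. For MI against sham the ratio (-1.34) passed by the exact permutation test alone. miR-22-5p in MI+CIH against sham became a call with median-of-ratios (-1.65), TMM (-1.87), edgeR (-1.80) and DESeq2 (-1.60), changed sign without set C (0.17), and ran from -0.40 to 0.0072 with 1 library left out. In MI+CIH against CIH 3p became a call with median-of-ratios (-3.30), TMM (-3.497), second copies removed (-1.86), edgeR (-2.89) and DESeq2 (-2.73), with -1.89 to -1.17 over libraries left out, and 5p with median-of-ratios (-2.35), TMM (-2.54), edgeR (-2.53) and DESeq2 (-2.31).

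Signs turned in several differences that were not called. These were 5p in MI against sham without sham 1 and MI 2 (-0.19), with median-of-ratios (-0.91), TMM (-1.11), second copies removed (-0.035), edgeR (-0.68) and DESeq2 (-0.58), and from -0.16 to 0.38 over libraries left out. 3p in CIH against sham became 0.010 with median-of-ratios, alone or with the set term, 0.0072 with edgeR and 0.013 with DESeq2. The 3p interaction was 0.20 without sham 1 and MI 2 and -1.14 to 0.16 over libraries left out. The ratio in MI+CIH against MI was 0.25 in set A, 0.0055 without sham 1 and MI 2 and -0.76 to 0.028 over libraries left out, and in MI+CIH against CIH, where it was -0.94, 0.26 with the set term and 0.45 in set A. The ratio interaction ran from -0.080 to 0.71. Of 581 values over 18 results, 512 kept direction and side of the threshold. The causes were not tested.

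Same-numbered samples (25 pairs, median r -0.01, -0.71 to 0.87) deviated together no more than differently numbered ones (122 pairs, median r -0.01, -0.82 to 0.90). No pairing by number was seen, but ranges this wide cannot exclude it. A replicate block, which takes MI+CIH 6 and 7 out of every contrast since no other group has these numbers, gave for MI+CIH against sham -0.98 in 3p (adjusted p 0.106), 0.17 in 5p and -1.15 in the ratio (adjusted p 0.0597), for MI+CIH against MI 0.34, 0.12 and 0.22, and a 3p interaction of 0.58. Counts of called miRNAs in MI+CIH against sham were 204 (188 higher, 16 lower) against 112 (61 higher, 51 lower) with median-of-ratios, 85 with edgeR and 0 with the set term; in MI against sham 0 against 114 without sham 1 and MI 2 and 39 with DESeq2. Depth limits miR-22-5p more than miR-22-3p: counting error reached 11.04% of a 5p value and 2.46% of a 3p value.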
